A study of Mus musculus with 12 samples.

Results

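The imprinted Dlk1-Dio3 domain was followed through 6 of its genes, Dlk1, Meg3, Rtl1, Rian, Mirg and Dio3, each found by its symbol among the 37991 genes of the deposited tables. All 6 were found, 4 of the 6 passed the filters on low values, and Dlk1 and Dio3 did not. The data are poly-A RNA-seq libraries of retina from male mice aged 8 weeks, each made from 6 to 8 pooled retinas. There were 12 libraries in 4 groups of 3, namely the inbred parents F0 C57BL/6J (B6) and F0 Cast/EiJ (Cast) and the reciprocal hybrids F1 B6xCast, whose mother was Cast/EiJ, and F1 CastxB6, whose mother was C57BL/6J. The F0 libraries were read on 1 lane and mapped to the transcriptome of their own strain, and the F1 libraries were read on 2 lanes and mapped to a hybrid transcriptome. The labels do not say that the 3 libraries of a group came from separate litters or cohorts, so p-values measure the spread between these pools.

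In mice this domain is controlled by an imprinting control region between Dlk1 and Meg3 that is methylated on the paternal chromosome. The maternal chromosome transcribes a chain of noncoding RNAs, Meg3, the antisense transcript of Rtl1, Rian and Mirg, all in the same orientation, which host many microRNAs (miRNAs) and small nucleolar RNAs (snoRNAs). The paternal chromosome is known for the protein-coding genes. Dlk1 encodes a transmembrane relative of the Notch ligands, Rtl1 a retrotransposon-derived protein needed in placenta, and Dio3 the deiodinase that inactivates thyroid hormone.

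The domain spans 828 kb on chromosome 12 of the NCBI37 mouse genome, the build of the deposited gene positions. Dlk1 (ENSMUSG00000040856, protein-coding, plus strand) lies at chr12:110691033-110701546. Meg3 (ENSMUSG00000021268, lincRNA, plus strand) follows after a gap of 77.7 kb at chr12:110779211-110809936. Rtl1 (ENSMUSG00000085925, protein-coding, minus strand) lies at chr12:110827404-110838540, and Rian (ENSMUSG00000091793, lincRNA, plus strand) begins 3.6 kb beyond its end, at chr12:110842155-110899919. Mirg (ENSMUSG00000091158, lincRNA, plus strand) lies at chr12:110973191-110987665, and Dio3 (ENSMUSG00000075707, protein-coding, plus strand) stands 529.6 kb further on at chr12:111517278-111519307. Rtl1 is the only member on the minus strand, and the library protocol does not keep the strand of a read, so reads of Rtl1 and of a transcript on the other strand of the same bases cannot be told apart.

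**Figure D1:**
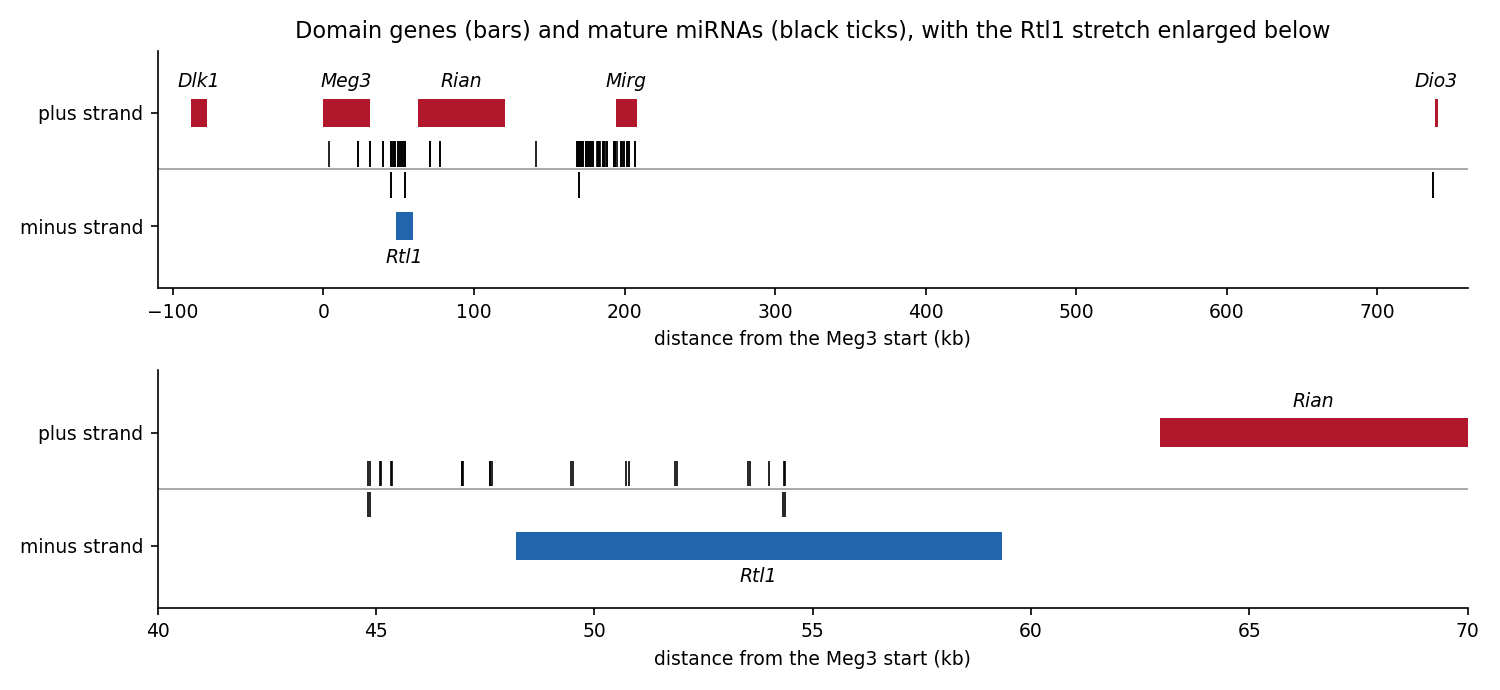
Positions of the 6 domain genes (bars, plus strand above and minus strand below the line) and of the mature miRNAs matched in the domain (black ticks), as distance from the Meg3 start in kb; the lower panel enlarges the stretch around Rtl1. The miRNAs within Rtl1 lie mostly on the plus strand, opposite to Rtl1, and the densest miRNA cluster runs from before Mirg into it.

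The mature miRNAs show what lies opposite Rtl1. RefSeq mature miRNA sequences of chromosome 12 were matched to the NCBI37 genome, and 113 of them from 61 precursors fell in the domain or within 50 kb of it, 105 on the plus strand, 6 on the minus strand and 2, both of mmu-miR-299b, with a match on each strand. Of these, 13 lay in Rtl1, all 13 within its coding sequence, and 11 of the 13 were on the plus strand, antisense to Rtl1. Mirg held 19, Rian 6 and Meg3 3, all on the strand of their host. The 11 that are antisense to Rtl1 are shown because the same bases are read as Rtl1 in an unstranded library. The capitals mark the seed, bases 2 to 8.
mmu-miR-431-5p: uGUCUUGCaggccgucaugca at chr12:110828669-110828689.
mmu-miR-431-3p: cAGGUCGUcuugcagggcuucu at chr12:110828712-110828733.
mmu-miR-433-5p: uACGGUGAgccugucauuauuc at chr12:110829939-110829960.
mmu-miR-433-3p: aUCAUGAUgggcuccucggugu at chr12:110829991-110830012.
mmu-miR-127-5p: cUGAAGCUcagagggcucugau at chr12:110831064-110831085.
mmu-miR-127-3p: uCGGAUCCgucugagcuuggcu at chr12:110831098-110831119.
mmu-miR-434-5p: gCUCGACUcaugguuugaacca at chr12:110832738-110832759.
mmu-miR-434-3p: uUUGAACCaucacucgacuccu at chr12:110832775-110832796.
mmu-miR-432: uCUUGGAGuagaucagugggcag at chr12:110833216-110833238.
mmu-miR-136-5p: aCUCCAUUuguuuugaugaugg at chr12:110833541-110833562.
mmu-miR-136-3p: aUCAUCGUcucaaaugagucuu at chr12:110833576-110833597.
No seed was shared among these 11, while 18 of the 113 miRNAs fell into 9 pairs with a common seed. The libraries were made from poly-A RNA in fragments and hold almost nothing of the small RNAs themselves. Of the 80 miRNA and snoRNA genes listed inside the domain, 57 and 23 respectively, 1 had a unique hit in the F1 libraries, a single maternal hit in Mir1188, and 0 had one in the F0 libraries.

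The start of Meg3 is the other sequence of interest, as the plus-strand chain begins there. RefSeq gives the following stretch for Meg3 in build GRCm38.p6, chr12:109540746-109541045 on the plus strand, running from 250 bases before to 50 bases after a start site that lies 5 bases upstream of the deposited start when the sequence is matched to NCBI37. The capitals mark a cAMP response element (TGACGTCA) and a TATA motif (TATATAA), the latter beginning 27 bases before the start site and matched on both strands by overlapping letters.
Meg3 promoter: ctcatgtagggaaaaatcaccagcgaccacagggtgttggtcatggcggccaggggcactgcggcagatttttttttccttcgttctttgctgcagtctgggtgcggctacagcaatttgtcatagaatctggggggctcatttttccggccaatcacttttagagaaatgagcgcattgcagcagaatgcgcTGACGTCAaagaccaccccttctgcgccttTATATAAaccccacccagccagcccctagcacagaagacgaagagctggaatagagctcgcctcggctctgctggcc
Read on both strands, TGACGTCA occurred in 1.79% and TATATAA in 3.24% of 32851 RefSeq mouse promoters of this length. The stretch held 13 CG dinucleotides, against a median of 7 over all promoters, and 1 of them lies inside the cAMP response element. It also held 1 copy of TGCCGC, a motif bound by the imprint-maintaining protein ZFP57 when methylated, which occurred in 11.6% of promoters. Another RefSeq promoter of Meg3, not printed, has its start site 4397 bases downstream of the deposited start. It held 1 CG dinucleotide and 0 copies of TGACGTCA, TATATAA and TGCCGC, so the motifs belong to the printed stretch only. The Rian promoter held 0 CG dinucleotides and the Mirg promoter 10, and neither held TGACGTCA, TATATAA or TGCCGC. These matches describe the letters only.

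The expression estimates come in 3 forms. Count equivalents are the authors' normalized estimates of reads per gene, with every column, also each allele column of an F1 library, scaled to a total between 12648792 and 13843914. A single allele of a balanced gene therefore has about the level of the gene in F0, and an allele that carries all the expression has about double that level. Unique hits are raw counts of read pairs assigned to 1 gene and, in F1, to 1 allele, and ranged from 8158534 to 12363291 per library over all genes. FPKM, the exponential of the deposited log expression, allows genes to be compared per length. Retinal marker genes were present in each library, with a summed level of 5 rod genes between 15591 and 17406 FPKM and of 5 retinal pigment epithelium genes between 0.707 and 2.33 FPKM. In whole tissue fewer cells of a type and less RNA per cell cannot be told apart.

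Per length, the noncoding members stood far above the protein-coding ones. Meg3, a long noncoding RNA, had a median of 171 FPKM over the 12 libraries, with a range from 132 to 272, and ranked 181 of 34964 autosomal genes. Rian, the host of many snoRNAs, had a median of 27.4 FPKM, between 25.2 and 33.8. Mirg, which holds more of the matched miRNAs than any other member, had a median of 4.08 FPKM, between 3.81 and 6.81. These 3 ranges do not overlap, and in each library Meg3 exceeded Rian between 4.73 and 8.04 times and Mirg between 32.1 and 48.4 times. The Rtl1 row had a median of 0.739 FPKM, between 0.504 and 1.01, below Mirg in each library. Dio3 at 0.160 FPKM, between 0.0216 and 0.294, and Dlk1 at 0.0387 FPKM, between 0.0201 and 0.0993, were lowest and their ranges overlap.

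The reciprocal crosses ask whether the allele from the mother or from the father is expressed, with the strain of the allele balanced out. In all 6 F1 libraries Meg3, Rian, Mirg and the Rtl1 row were read almost entirely from the maternal allele, whichever strain it came from. All 4 members tested were called maternal by limma, against 0.492% of 13414 polymorphic autosomal genes called in either direction and 0.179% called maternal. They stood at positions 1 (Rian), 3 (Mirg), 4 (Meg3) and 31 (Rtl1) by p-value among these genes.

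**Figure D2:**
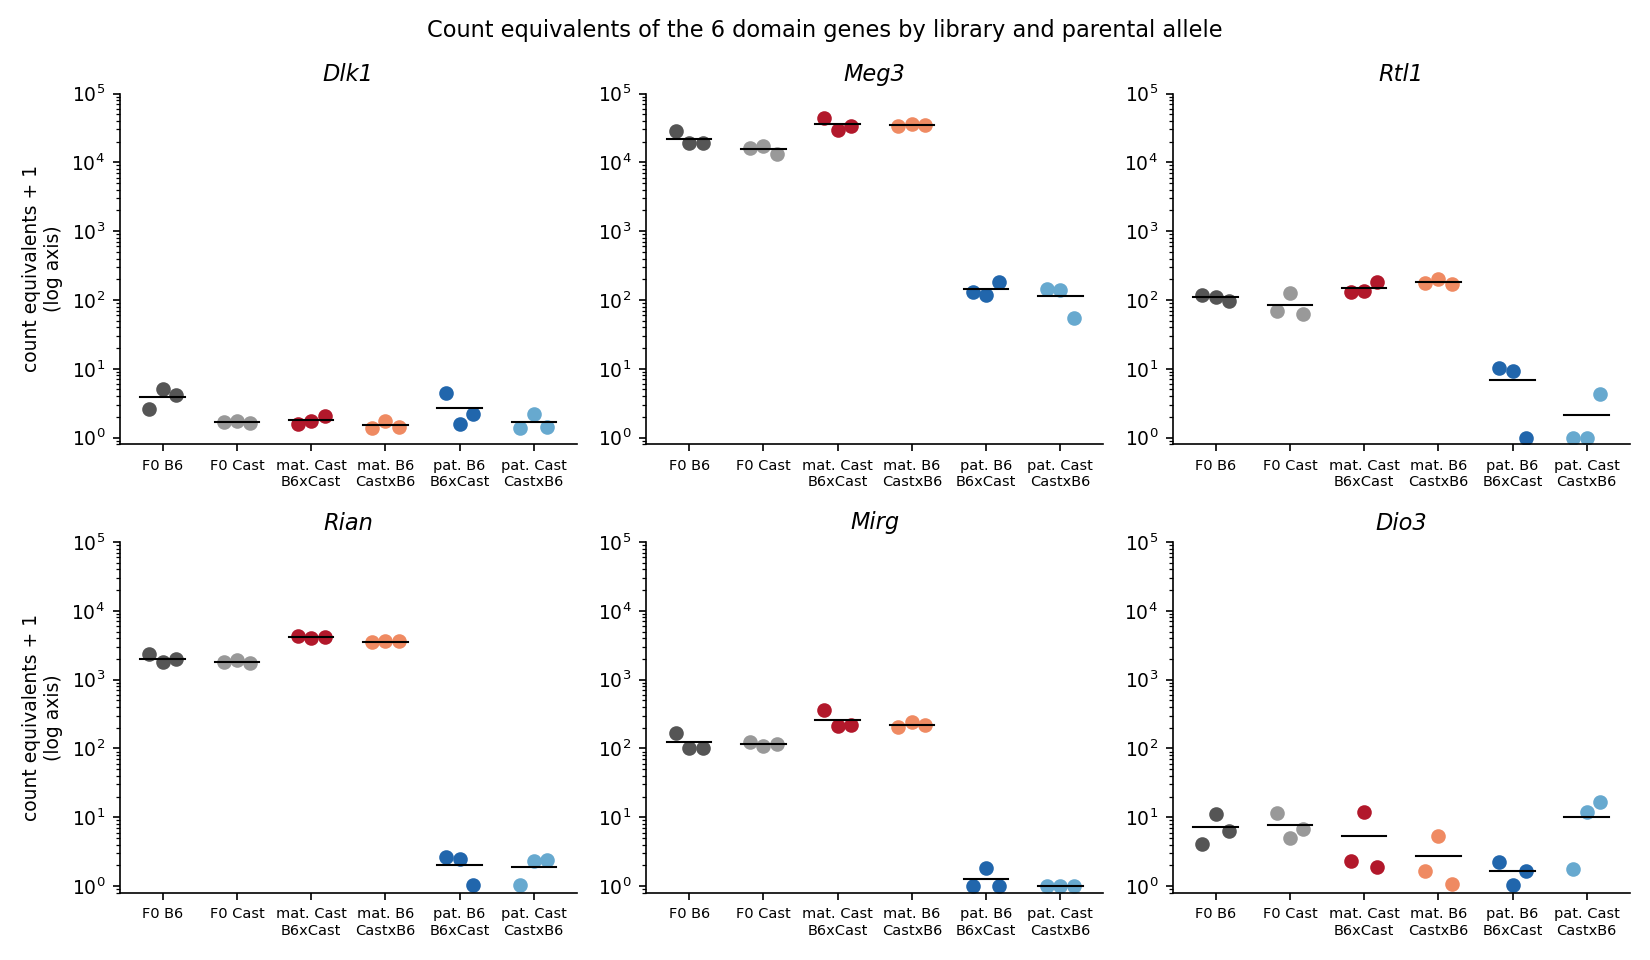
Count equivalents plus 1 (log axis) of each domain gene in the 3 libraries of each class, with black lines at the class means; mat. and pat. mark the maternal and paternal alleles of the F1 libraries, with the cross below. For Meg3, Rtl1, Rian and Mirg the 6 maternal values lie far above the 6 paternal ones in both crosses, and Dlk1 and Dio3 are low throughout.

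Meg3 had 43700, 29700 and 33800 count equivalents on the maternal Cast allele of the 3 F1 B6xCast libraries and 33200, 36000 and 35000 on the maternal B6 allele of the 3 F1 CastxB6 libraries. The paternal allele had 130, 116 and 180 in F1 B6xCast and 145, 138 and 53.2 in F1 CastxB6. The groups do not overlap in either cross, and the highest maternal value belongs to F1 B6xCast replicate 1. The maternal allele was higher by 8.18 ± 0.19 (SE) on the log2(count equivalents + 1) scale, with an adjusted p of 7.6e-15 by limma. In unique hits, 111130 of 111316 were maternal, 99.8% (95% Wilson interval 99.8% to 99.9%), a ratio of 597 maternal hits per paternal hit.

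The maternal allele of Rian, the snoRNA host, had 4370, 4060 and 4160 count equivalents in F1 B6xCast and 3480, 3670 and 3590 in F1 CastxB6, while no paternal value exceeded 1.63. The difference of 11.04 ± 0.20 (log2, SE, adjusted p 3.4e-16 by limma) had the smallest p of all genes tested. Of 15672 unique hits 4 were paternal, 0.0255% (95% Wilson interval 0.00993% to 0.0656%).

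Mirg followed the same pattern at a lower level. Its maternal allele had 356, 210 and 220 count equivalents in F1 B6xCast and 204, 241 and 216 in F1 CastxB6, and its paternal allele had at most 0.812. F1 B6xCast replicate 1 was again the highest, and the groups do not overlap. The maternal allele was higher by 7.74 ± 0.18 (log2, SE, adjusted p 7.3e-15 by limma). A single paternal unique hit stood against 1337 maternal ones, a paternal share of 0.0747% (95% Wilson interval 0.0132% to 0.422%) whose interval overlaps that of Rian. Where the paternal allele is near 0 the pseudocount sets the size of the log2 difference, so the sizes do not rank the members. With pseudocounts of 0.1 and 5 in place of 1 it was 10.62 and 5.56 for Mirg, 12.46 and 9.35 for Rian and 8.19 and 8.13 for Meg3.

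The Rtl1 row had 129, 133 and 179 count equivalents on the maternal allele in F1 B6xCast and 175, 198 and 171 in F1 CastxB6. The paternal allele had 9.34 and 8.24 in F1 B6xCast replicates 1 and 2, 3.33 in F1 CastxB6 replicate 3 and under 0.001 in the other 3 libraries. All 6 libraries had more on the maternal allele, by 5.90 ± 0.46 (log2, SE, adjusted p 2.1e-07 by limma). In unique hits 225 of 230 were maternal, 97.8% (95% Wilson interval 95.01% to 99.1%), and by library the maternal share ran from 91.7% to 100%. The interval of Rtl1 lies below those of Meg3, Rian and Mirg, and it rests on a mean of 38.3 unique hits per library. Since strand was not kept and the plus strand opposite the Rtl1 coding sequence carries the 11 miRNAs printed above, these reads cannot be told apart between Rtl1 and its antisense transcript. With the deposited log expression in place of count equivalents the Rtl1 difference was 12.61 ± 2.58 (log2, SE) and the call was lost (adjusted p 0.051 by limma). With pseudocounts of 0.1 and 5 it was 7.66 and 4.45, and the call remained.

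Dlk1 and Dio3 were too low for a test. Dlk1, the Notch ligand relative, had 4 unique hits in the 6 F1 libraries, all on the paternal allele, 1 each in F1 B6xCast replicates 1 and 2 and 2 in F1 CastxB6 replicate 2. A maternal share of 0 of 4 hits has a 95% Wilson interval up to 49.0% and an exact one up to 60.2%. Its highest count equivalent was 4.12, in F0 C57BL/6J replicate 2. Dio3, the thyroid hormone deiodinase, had 7 allele-specific hits, 3 maternal and 4 paternal, a maternal share of 42.9% (95% Wilson interval 15.8% to 74.95%). In F0 it had 3, 10 and 5 unique hits in C57BL/6J and 7, 3 and 5 in Cast/EiJ. An allelic difference of either gene was not detectable at this depth. Dio3os, the antisense lincRNA beside Dio3, had 18 maternal and 33 paternal hits and also missed the filter.

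The genes around the domain were tested in the same way. Within 1 Mb on each side lay 116 other genes, counting those inside, of which 22 could be tested. Of these 22, 0 were called by limma, against 0.492% of all genes tested, with 3 at an unadjusted p under 0.05. Their log2 differences ran from -0.43 to 0.10, with a median of -0.06. On the Dlk1 side the nearest tested gene was Begain, which encodes a postsynaptic protein and stands 399.4 kb away. Begain had 499 ± 61.8 (SD, n = 6) maternal and 681 ± 143 (SD, n = 6) paternal count equivalents and was lower on the maternal allele in all 6 libraries, by 0.43 on the log2 scale (SE 0.11, adjusted p 0.16 by limma), so it did not pass the test. Of its unique hits 42.3% were maternal (95% Wilson interval 40.2% to 44.4%). On the Dio3 side the nearest was Ppp2r5c, a regulatory subunit of protein phosphatase 2A, 166.2 kb away, with 49.5% maternal hits and a log2 difference of -0.02 ± 0.03 (SE). The 399.4 kb between Begain and Dlk1 and the 166.2 kb between Dio3 and Ppp2r5c held no gene that could be tested, so the extent of the parental difference was not resolved on either side.

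**Figure D3:**
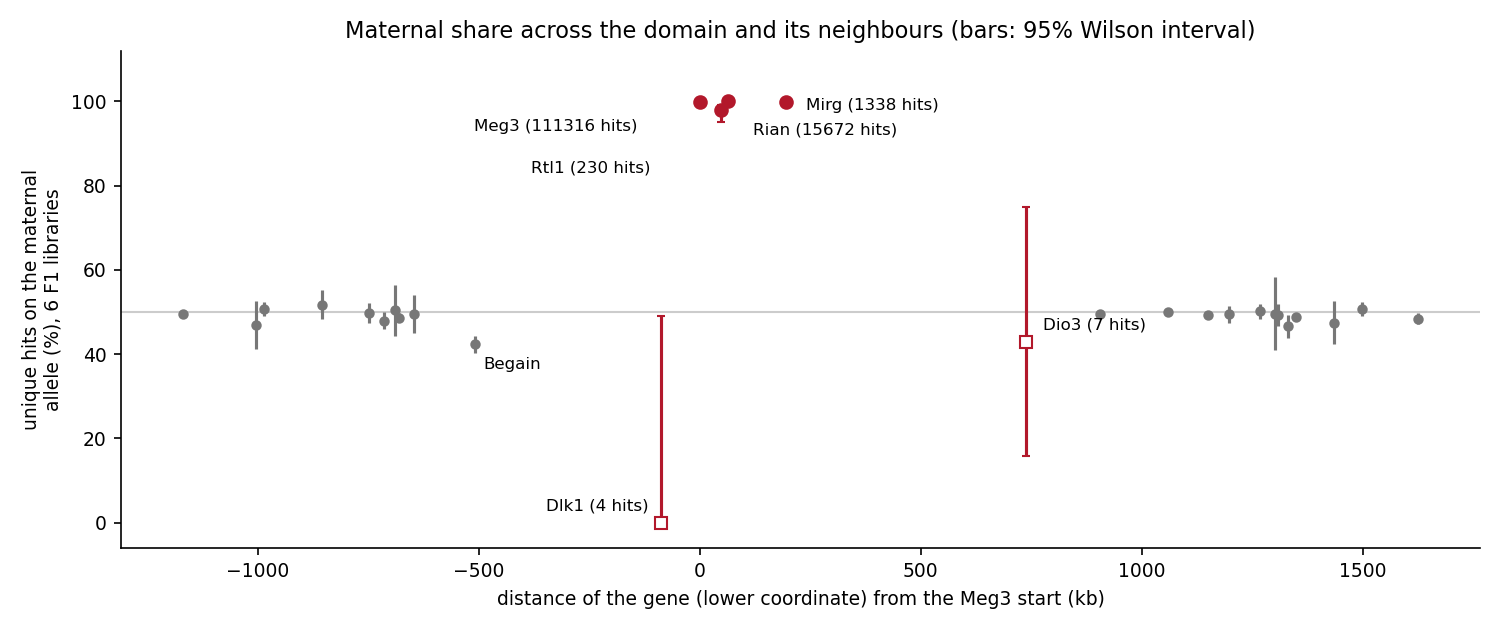
Share of allele-specific unique hits on the maternal allele, summed over the 6 F1 libraries, against distance from the Meg3 start in kb, with 95% Wilson intervals; red marks domain genes (open squares for Dlk1 and Dio3, with 4 and 7 hits) and grey the 22 tested neighbours. Meg3, Rtl1, Rian and Mirg lie between 97.8% and 100%, and the neighbours lie near 50% with Begain lowest at 42.3%.

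How silent the paternal allele was could be set against the X chromosome. Male mice carry only the maternal X, so X-linked hits assigned to the father's strain are a measure of misassignment, apart from the pseudoautosomal region that the X shares with the Y. They made up between 0.468% and 0.637% of X-linked hits per library, with a median of 0% over X-linked genes that had 100 hits or more, and 51.6% of them came from 5 genes led by Mid1, which reaches into that region. The paternal share of Meg3 lay below the X-linked share in each library, at 0.217%, 0.306% and 0.265% in F1 B6xCast and 0.0895%, 0.112% and 0.0479% in F1 CastxB6. The shares of Rian and Mirg also lay below it in each library. The Rtl1 row lay above it in 3 libraries, on 5 paternal hits in all. Because a few genes make up the X-linked share and the median gene is at 0%, whether the paternal hits of Meg3 are misassigned was not tested.

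**Figure D4:**
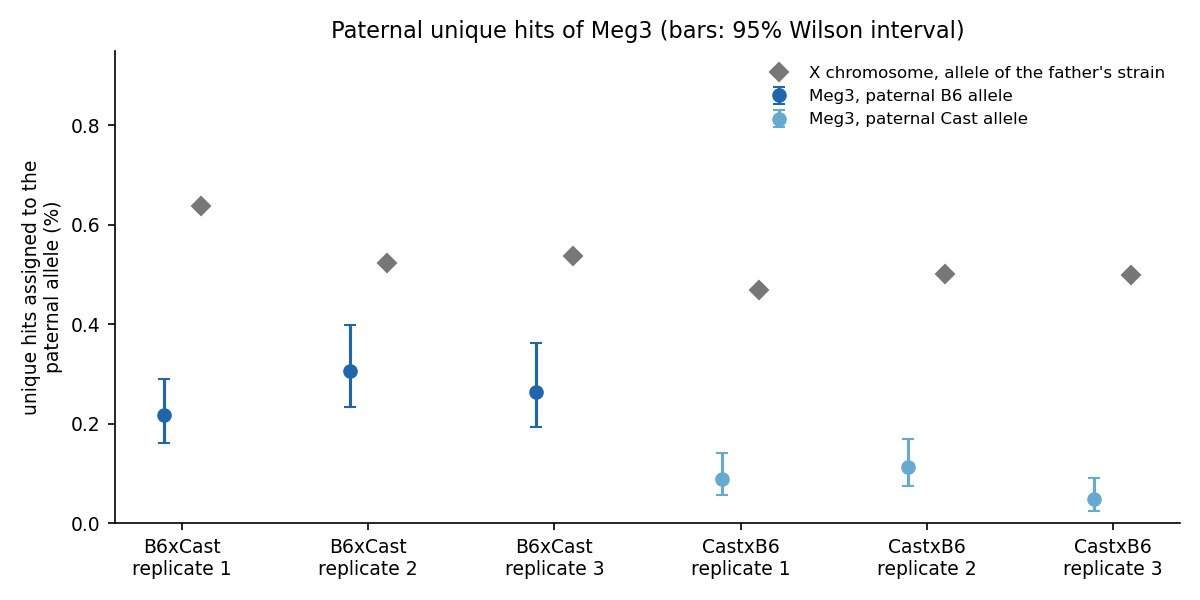
Share of Meg3 unique hits assigned to the paternal allele in each F1 library (circles, 95% Wilson intervals) and the share of X-linked hits assigned to the father's strain in the same library (diamonds). All 6 Meg3 values lie below the X-linked value of their library, and the 3 F1 B6xCast values lie above the 3 F1 CastxB6 values.

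The strain of the allele was compared with its parent held fixed. On the maternal side 0 of 4 members were called by limma, against 29.8% of all genes tested. The model took 1 spread per gene over maternal, paternal and F0 columns. The maternal allele of Rian was 4197 ± 158 (SD, n = 3) when from Cast and 3580 ± 95.4 (SD, n = 3) when from B6, with no overlap, a log2 difference of 0.23 that had an SE of 0.30 and an adjusted p of 0.62 in that model. With the 6 maternal columns alone the SE was 0.05 and the adjusted p 0.016 by limma, and on unique hits edgeR gave a log2 difference of 0.28 with an adjusted p of 0.0028 and DESeq2 of 0.0018. The Rian call therefore depends on the model. Meg3 (0.02), Mirg (0.21) and Rtl1 (-0.31) were called in none of these 4 fits. The maternal strain is also the cross, so an allele difference and a difference between the crosses cannot be told apart here.

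On the paternal side 0 of 4 members were called by limma on count equivalents, against 30.3% of all genes. The paternal count equivalents of Meg3, given above, overlap between B6 and Cast, with a log2 difference of -0.44 ± 0.29 (SE, adjusted p 0.27 by limma). Its unique hits did not overlap, with 45, 54 and 38 on paternal B6 and 18, 22 and 9 on paternal Cast, and both edgeR (adjusted p 0.00021) and DESeq2 (log2 difference -1.56, adjusted p 7.2e-08) called the Cast allele lower. As given above, both sets are below the X-linked share of their library, and the X-linked share was also higher in F1 B6xCast (0.523% to 0.637%) than in F1 CastxB6 (0.468% to 0.501%). The part of misassignment in this difference was not tested. For Rtl1, the paternal Cast allele was 1.49 lower (log2, SE 0.70, adjusted p 0.12 by limma). It passed without F1 B6xCast replicate 3 (adjusted p 0.0011) and without F1 CastxB6 replicate 3 (adjusted p 0.036). In all, 4 paternal hits stood in F1 B6xCast and 1 in F1 CastxB6.

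Between the inbred parents, Meg3 was the 1 member of 4 called, lower in Cast, where 33.8% of 14452 genes were called, 16.6% lower and 17.2% higher in Cast. With TMM factors this split was 2940 lower and 1695 higher in place of 2401 and 2486. Meg3 had 28500, 19100 and 18800 count equivalents in F0 C57BL/6J and 16000, 17100 and 13100 in F0 Cast/EiJ, which do not overlap, and replicate 1 of C57BL/6J stands above the rest. The difference of -0.50 ± 0.17 (log2, SE) had an adjusted p of 0.044 by limma. Without C57BL/6J replicate 1 it was -0.31 (adjusted p 0.068), it was also lost without C57BL/6J replicate 2 or without any 1 of the Cast/EiJ libraries, and with the deposited log expression it was -0.27 (adjusted p 0.40). Marker levels of other cell types differed between the same groups. The 3 ganglion cell markers summed to between 126 and 139 FPKM in F0 C57BL/6J and between 84.1 and 92.4 in F0 Cast/EiJ, and the 4 cone markers to between 384 and 461 and between 261 and 318. Horizontal cell, vessel and fibroblast or choroid markers were also lower in Cast without overlap. The other way, amacrine markers were at 106 to 137 FPKM in C57BL/6J and 146 to 167 in Cast, and rod markers at 15591 to 15732 and 16622 to 17406. The bipolar, Mueller glia, pigment epithelium, lens and blood markers overlapped. Their part in the Meg3 difference was not tested.

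Rian had 2320, 1790 and 1970 count equivalents in F0 C57BL/6J and 1810, 1900 and 1770 in F0 Cast/EiJ, and Mirg had 165, 99.3 and 102 and 122, 108 and 115. In both genes C57BL/6J replicate 1 was highest and the strains overlap. The differences were -0.14 ± 0.10 for Rian and -0.05 ± 0.20 for Mirg (log2, SE, adjusted p 0.28 and 0.88 by limma). Rtl1 had 119, 111 and 95.8 against 67.3, 124 and 62.1, a difference of -0.42 ± 0.25 (log2, SE, adjusted p 0.23 by limma), which passed only without Cast/EiJ replicate 2, the highest Cast library (-0.73, adjusted p 0.021). Whether the strain difference in F0 differed from that between the maternal alleles in F1 was tested in the model over all columns, which called 0 of 4 members against 8.45% of all genes. The interaction was -0.53 for Meg3, -0.37 for Rian, -0.26 for Mirg and -0.11 for Rtl1 on the log2 scale. For F0 and maternal columns alone the adjusted p was 0.21 for Meg3 and 0.074 for Rian by limma.

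The total over both alleles was also set against the inbred parents. Averaged over its alleles, an F1 library is on the F0 scale, and by this measure 0 of 4 members were called by limma, against 12.2% of 14710 genes, 1057 higher and 740 lower in F1 (2376 and 628 with TMM factors). Meg3 had 18767 ± 5242 (SD, n = 6) in F0 and 17680 ± 2336 (SD, n = 6) in F1, a log2 difference of -0.05 ± 0.12 (SE). Rian had 1927 ± 207 and 1945 ± 179 (SD, n = 6 each), a difference of 0.01 ± 0.06. Mirg had 119 ± 24.2 and 121 ± 28.8, a difference of 0.02 ± 0.16, and Rtl1 96.5 ± 26.5 and 83.8 ± 11.6, a difference of -0.16 ± 0.16. Lanes and transcriptome differed between F0 and F1 and cannot be told apart from generation, here and in the gene lists below. Blood markers summed to between 35.1 and 60.6 FPKM in the F0 libraries and between 22.2 and 27.6 in the F1 libraries. The other marker sets overlapped between F0 and F1. The part of blood in any F1 against F0 difference was not tested.

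The 4 measurable members also varied from pool to pool. Taking each library as its deviation from the mean of its own group (log2), Meg3 and Rian moved together over the 12 libraries, with Pearson's r of 0.85 (p = 0.0023) and Spearman's rho of 0.90 (p = 0.0031), both by an exact permutation test within groups, two-sided. Over the 6 pairs of members compared the adjusted values were 0.014 and 0.019. The relation was seen within F0 (r = 0.88) and within F1 (r = 0.91), and without the 2 libraries farthest out on Meg3, F0 C57BL/6J replicate 1 and F1 B6xCast replicate 1, r was 0.70. Meg3 and Mirg gave r = 0.86 and rho = 0.77 (exact permutation p = 0.044 and 0.028, adjusted 0.088 and 0.056), falling to r = 0.60 without the same 2 libraries, and Rian and Mirg gave r = 0.77 and rho = 0.76 (exact permutation p = 0.029 and 0.028, adjusted 0.088 and 0.056), or 0.65 without its 2 farthest. The pairs with Rtl1 did not pass the test, at r = 0.38 with Meg3, 0.33 with Rian and -0.06 with Mirg (exact permutation p = 0.23, 0.20 and 0.79; rho 0.41, 0.41 and -0.07, p = 0.31, 0.25 and 0.81). Without the 2 farthest libraries these were 0.60, 0.23 and 0.03, so that Meg3 and Rtl1 then had the same r as Meg3 and Mirg. Only Meg3 with Rian passed after adjustment, and differences between the correlations were not tested.

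**Figure D5:**
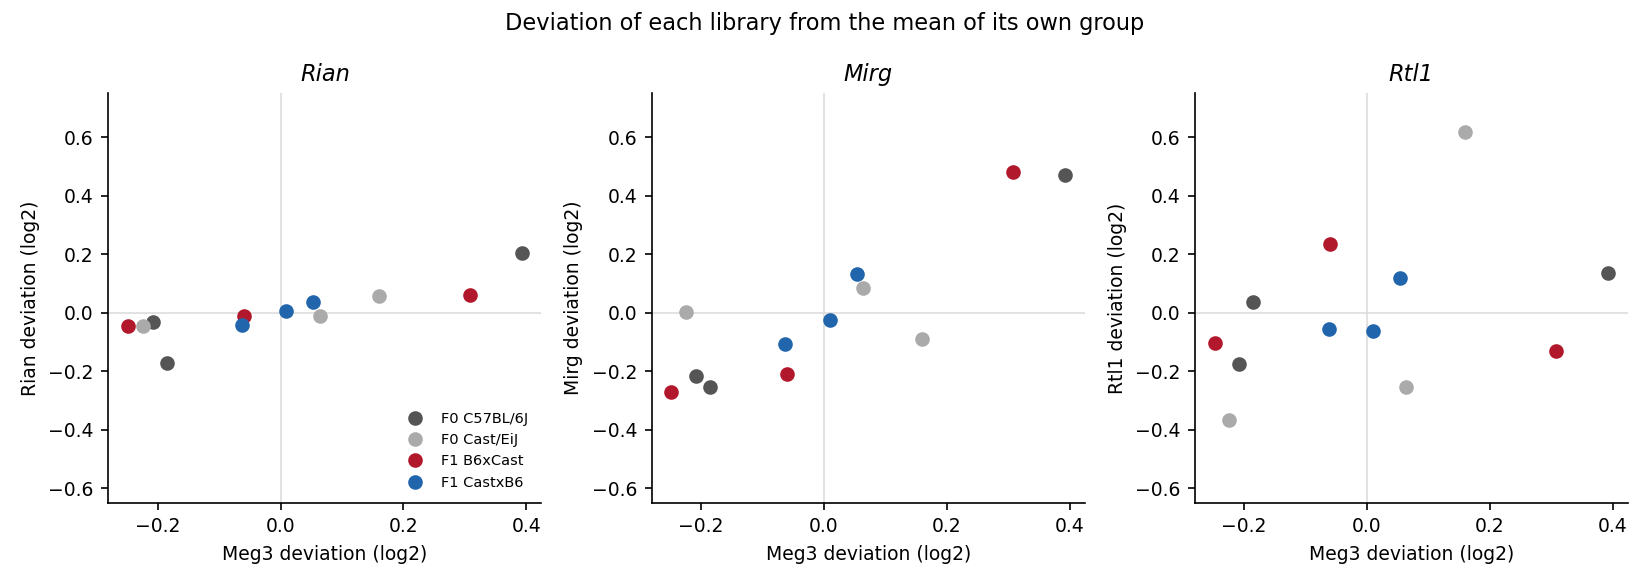
Deviation of each of the 12 libraries from the mean of its own group (log2) for Rian, Mirg and Rtl1 (vertical axes) against Meg3 (horizontal axes), coloured by group. F0 C57BL/6J replicate 1 and F1 B6xCast replicate 1 lie highest on Meg3 and on Mirg, and r is 0.85 for Rian, 0.86 for Mirg and 0.38 for Rtl1.

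Likeness was ranked over 10248 autosomal genes whose mean reached 100 count equivalents. Those most like Meg3 over the 12 libraries by Pearson's r of log2 totals were Slc12a9 (0.99), Col27a1 (0.98), Csf2ra (0.96), Smarcd1 (0.96) and Ankrd24 (0.95). For Rian they were Zcchc4 (0.88), Cyb5r1 (0.86), Zbtb8os (0.84), Zfp397 (0.83) and Trim3 (0.82), and for Mirg they were Cybasc3 (0.92), Zfp579 (0.92), Celf5 (0.91), Zfp691 (0.89) and Mapk1ip1 (0.89). No member was among the 5 genes most like another member. Rian ranked 546 and Mirg 695 in likeness to Meg3, and Meg3 ranked 85 and Mirg 67 in likeness to Rian. These values describe shared movement over libraries that also share strain, lane and depth.

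The list of imprint control genes held 18 genes, among them the DNA methyltransferases, Zfp57, Zfp445, Trim28, Ctcf and the Polycomb repressive complex 2 subunits. By parent of origin 0 of 15 tested were called by limma, against 0.492% of all genes, with differences from -0.19 to 0.16. Between the F0 strains 4 of 15 rose in Cast and 0 fell, against 17.2% and 16.6% of all genes, with a median log2 difference of 0.10 against 0.03 over all genes. Trim28, the corepressor recruited by ZFP57, had 1970 ± 118 in C57BL/6J and 2720 ± 139 in Cast (SD, n = 3 each), a difference of 0.47 ± 0.07 (SE, adjusted p 0.0014 by limma). Zfp445, a zinc finger protein that acts with Trim28 at imprints, had 1600 ± 104 and 2167 ± 110, a difference of 0.44 ± 0.07 (SE, adjusted p 0.0022 by limma). Zfp57 itself had 88.3 ± 8.17 and 91.9 ± 14.0, with an adjusted p of 0.85. In F1 against F0, 2 of 16 were called, against 12.2% of all genes, both higher, Dnmt3l by 1.78 and Tet1 by 0.47 on the log2 scale (adjusted p 0.0033 and 0.011 by limma). The filter of this comparison counts F0 and F1 libraries together, so a gene low in F0 can pass it through F1. It kept 16 genes of the list, against 15 with the F0 libraries alone, so a rise in F1 can rest on low F0 values.

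The Notch pathway is the setting in which Dlk1 acts. By parent of origin 0 of 19 tested genes of a list of 22 were called, against 0.492% of all genes. Between the F0 strains 1 of 21 rose in Cast and 4 fell, against 17.2% and 16.6% of all genes, with a median log2 difference of -0.04. Mfng, a glycosyltransferase that modifies Notch, had 63.5 ± 13.5 in C57BL/6J and 147 ± 11.6 in Cast (SD, n = 3 each), higher by 1.21 ± 0.18 (log2, SE, adjusted p 0.00094 by limma). The receptor Notch3 fell by 0.84 on the log2 scale and Lfng, a relative of Mfng, by 0.58 (adjusted p 0.0092 and 0.011 by limma). Dlk2, the closest relative of Dlk1, had 21.9 ± 3.38 and 27.6 ± 4.75 count equivalents, with an adjusted p of 0.35. In F1 against F0, 3 of 22 genes were called, against 12.2% of all genes, all lower, with log2 differences of -3.91 for Lfng and -1.04 for Hes1 (adjusted p 0.0016 and 7.6e-05 by limma). As stated for the totals, F0 and F1 were mapped to different transcriptomes, and the part of this in these differences was not tested.

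The thyroid hormone pathway is the one in which Dio3 acts. By parent of origin 0 of 13 tested genes of a list of 15 were called, against 0.492% of all genes. Between the F0 strains 3 of 13 rose in Cast and 3 fell, against 17.2% and 16.6% of all genes, with a median of 0.01. Dio2, the deiodinase that activates thyroid hormone and the counterpart of Dio3, had 804 ± 483 in C57BL/6J and 2280 ± 1028 in Cast (SD, n = 3 each), a difference of 1.56 ± 0.45 (log2, SE, adjusted p 0.027 by limma). Crym, which binds thyroid hormone in the cytosol, rose by 0.74 ± 0.10 (adjusted p 0.00054). Ttr, the hormone carrier transthyretin, fell by 1.77 and the receptor Thrb by 0.35 on the log2 scale (adjusted p 0.00046 and 0.0057 by limma). In F1 against F0, where 12.2% of all genes were called, 2 of 13 were higher, Slco1c1 by 0.39 and Ncor1 by 0.20, and 2 lower, among them Rxrg with -0.27 (log2, adjusted p 0.0032, 0.00053 and 0.036 by limma). Dio3 itself did not exceed 15.6 count equivalents in any column.

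The miRNA and snoRNA processing genes act on small RNAs such as those hosted by Meg3, Rian and Mirg. The list held 12 genes, of which 10 were in the tables and 9 could be tested. By parent of origin 0 of 9 were called against 0.492% of all genes, in F1 against F0 0 of 9 against 12.2%, and between the F0 strains 1 of 9 against 33.8%. This was Nhp2l1, higher in Cast, a protein of box C/D snoRNA particles, with 720 ± 15.0 in C57BL/6J and 894 ± 45.0 in Cast (SD, n = 3 each), a difference of 0.31 ± 0.07 (log2, SE, adjusted p 0.011 by limma).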

How the data were processed

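The values come from 12 libraries of poly-A RNA of mouse retina. The authors trimmed reads (Trim Galore 0.2.6), mapped them (Bowtie 0.12.9, build mm9, as the submitters' notes list them) to strain-specific or hybrid transcriptomes of Ensembl and estimated expression with MMSEQ. The signal values deposited by the authors are count equivalents, normalized across columns. Unique hits are a raw count deposited by the authors. Expression was deposited by the authors as a natural log, and its exponential was used as FPKM. The authors' posterior SDs, posterior probabilities and Bayes factors were not used, apart from the flag for nonpolymorphic genes.

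Allelic comparisons used limma on log2(count equivalents + 1) over 18 columns, with the library as a block (consensus correlation 0.1354), on autosomal genes that carry a polymorphism and average 10 or more unique hits over both alleles in F1. F0 and total comparisons kept an autosomal gene if 3 or more libraries reached 10 count equivalents. P-values were adjusted over all genes by the Benjamini-Hochberg method, with calls under 0.05. The planned F1 total was the sum of both alleles. Because each allele column is scaled as a whole library, the mean was used instead, and the sum is an alternative chosen after seeing the data, as are the fits of maternal or paternal columns alone. Other alternatives were pseudocounts of 0.1 and 5, no filter or a filter of 50, TMM factors, the deposited log expression, edgeR and DESeq2 on unique hits, a replicate block, no library block and each library left out. Intervals and limits cover counting error only, since amplified reads that carry no molecular identifier can repeat 1 molecule.

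The members and gene lists were chosen with earlier results of these data known. The text names the 6 members, the nearest tested gene on each side within 1 Mb and any of up to 5 called there, up to 2 called genes per direction of each list, and the 5 genes most like each member whose mean reached 100 count equivalents. A gene that this rule names is not reported here. Zfp57, Dlk2, Dio3os, Mid1 and Mir1188 were added after their values were seen. The scripts were tested on simulated data in which 200 genes changed by 2-fold, of which limma called 82% by parent of origin, 70% between F0 strains and 92% between F1 and F0. Sequences are from RefSeq (GRCm38.p6) and were located in NCBI37. Tools were R 4.3.3, limma 3.58.1, edgeR 4.0.16, DESeq2 1.42.0, Python 3.11.15, pandas 2.3.3 and scipy 1.17.1.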

Additional observations from a re-analysis of the deposited data

Results flagged for a closer look

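Of 12 sets of 6 F1 values checked for a single library far from the rest, 2 were flagged, both for Mirg, where chance flags about 1 in 20. F1 B6xCast replicate 1 had 356 maternal count equivalents of Mirg, with the next library at 241, and Meg3 and Rian also had their highest maternal values in that library. F1 B6xCast replicate 2 had a maternal share of Mirg hits of 99.6%, from a single paternal hit, while the other 5 libraries had 100%. With 5 libraries tied at 100% any lower value is flagged, so the rate of 1 in 20 does not apply to this flag.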

How the results depend on the processing

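All 4 tested members kept their maternal call in every alternative run except Rtl1 with the deposited log expression, and except that Rtl1 could not be tested under the filter of 50. The parent-of-origin count over all genes was 38 with edgeR and 41 with DESeq2 on unique hits, against 66. For the maternal strain difference 1 member in place of 0 was called with edgeR, with DESeq2 and with maternal columns alone (Rian each time). For the paternal strain difference 1 was called with edgeR and DESeq2 (Meg3), and between 0 and 1 when a library was left out (Rtl1). For the F0 difference 1 was called, and 0 with pseudocount 0.1, without a filter and with the deposited log expression, and between 0 and 1 when a library was left out. Without a filter 3161 genes in place of 4887 were called there. For F1 against F0, 0 members and 1797 genes were called, 3004 genes with TMM factors, and 4 members and 14214 genes with summed alleles, which shifted the median of all genes to 1.002 and turned Meg3 to 0.95 and Rtl1 to 0.83. By count equivalents the maternal share of Meg3 was 99.6%. Of 488 values of single members under alternatives, 22 that passed in neither fit had the other sign.

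Same-numbered libraries of different groups correlated between -0.11 and 0.02 in their deviations for pairs with F1 CastxB6 and between 0.03 and 0.30 for the others. Not every pair was over 0.1, so the numbers were not taken to pair the libraries. With a replicate block 4 members were called by parent of origin, 1 between F0 strains (Meg3) and 0 in the other comparisons, and 54 genes by parent of origin, 4245 and 4300 for the maternal and paternal strain difference, 1274 for the F0 minus maternal difference, 6376 between F0 strains and 2015 between F1 and F0. Of 12 libraries, 0 correlated best with their own number in every other group. Depth limits Dlk1 and Dio3, with 4 and 7 allele-specific hits.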
